A study of Mus musculus with 3 samples.

Results

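The Aire-expressing, non-cycling medullary epithelium of the aged mouse thymus was described here as a set of single cells. Its members were the cell barcodes with at least 2 UMIs of Aire and at least 1 of Epcam, the epithelial adhesion molecule. A UMI (unique molecular identifier) counts 1 captured RNA molecule. Members also had at most 1 UMI of the cycling genes Mki67 and Top2a together, and 0 UMIs of Psmb11, Pecam1 and Pdgfra, which mark cortical epithelium, endothelium and fibroblasts. All barcodes had over 1000 genes and under 20% mitochondrial UMIs. The rule found 282 members among 14956 barcodes kept of 17677 called, with 74 from Foxn1Lin female, 58 from Foxn1Lin male and 150 from wild type mice. They were set against the 2020 other barcodes with at least 2 Epcam UMIs (534, 447 and 1039), called other epithelium below.

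Stromal cells of the thymus were sorted as CD45- and sequenced as 1 droplet library per group. Every library came from untreated C57BL/6 mice aged 20 months, and per the labels each held a pool of 10 to 15 thymi. Both Foxn1Lin libraries, 1 from females and 1 from males, came from mice in which Cre recombinase driven by Foxn1 switches on a tdTomato reporter at the Rosa26 locus, and the third library came from wild type males. The labels also carry conflicts, as the protocol names females for all libraries and 1 field calls the wild type sort CD45-PECAM1+. With 1 library per group, no difference between libraries was tested, and no group of another age was analysed here. The tests below compare members with other epithelium inside the same 3 libraries, so that P values measure only the spread between these 3 pools.

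AIRE is a nuclear regulator that lets medullary thymic epithelial cells (mTECs) transcribe genes that are otherwise restricted to single peripheral tissues, so that developing T cells reactive to those products are deleted or diverted. FEZF2 is another regulator that controls a partly separate set of such antigens. Maturation into this state depends on RANK and CD40 signals from lymphocytes, and the cells then carry high major histocompatibility complex (MHC) class II and costimulatory molecules before they pass into later, tissue-mimicking states.

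The 4 marker genes that the rule did not use were all higher in members, as the label of the set implies. The summed Aire level, which the rule itself fixed, was 776, 562 and 651 UMIs per 1000000 UMIs (CPM) in the members of Foxn1Lin female, Foxn1Lin male and the wild type, in that order here and throughout. It was 129.5, 100.3 and 103 CPM in other epithelium, where 27.3, 15.7 and 23.4% of barcodes held an Aire UMI. Single barcodes there held up to 38, 95 and 61 Aire UMIs. Other epithelium held 4598 Aire UMIs in all and members 3667. Barcodes with 2 or more Aire UMIs that were cycling or excluded stayed in other epithelium. Fezf2 was at 419, 517 and 402 CPM in members and at 118, 123 and 111 CPM in other epithelium. Each library was thus above the highest level of the comparison group. The log2 fold change of Fezf2 was 1.99. It was 3.39 against other epithelium with 0 Aire UMIs and under the rule's limits on cycling and excluded genes. Cd80, which encodes a costimulatory ligand, was at 381, 453 and 409 against 102, 107 and 88.0 CPM, and Ubd, which encodes the ubiquitin-like FAT10, at 3280.2, 2756 and 3572 against 966, 699.9 and 698 CPM. Ptprq, a phosphatase of the inner ear, was at 592, 447 and 622 against 155, 147 and 172 CPM. Members with a UMI were 82.3% of 282 for Fezf2, 83.7% for Cd80, 97.9% for Ubd and 79.1% for Ptprq. Aire lies on chromosome 10, 78030022 to 78043610, minus strand, and Fezf2 on chromosome 14, 12342094 to 12348189, minus strand (GENCODE vM21, GRCm38).

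Members held a median of 12806, 19870.5 and 21406.5 UMIs and 3599.5, 4590 and 5063 genes, against 13240, 13964 and 18985 UMIs in other epithelium. Aire itself had a median of 8, 6 and 10 UMIs per member, with a highest value of 52, 55 and 75. Barcodes with the highest doublet scores, at the multiplet rate of 3.9% in the labels and with ties included, numbered 343 of 8616, 154 of 3583 and 237 of 5478 called. They were 1, 11 and 11 of the members, 1.35, 19.0 and 7.33%. UMIs outside called barcodes, a measure of free RNA, were 26.5, 12.9 and 9.46% of all UMIs. Shared barcode sequences numbered 8, 14 and 3 between library pairs, and 1 of these belonged to a member.

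Members formed a like share of the epithelial barcodes in every library at full depth. The share was 12.2% (9.68% to 15.0%), 11.5% (8.84% to 14.6%) and 12.6% (10.8% to 14.6%), where the brackets give exact Clopper-Pearson 95% intervals that cover counting error only. The intervals overlapped. Of all barcodes kept, members were 1.07, 1.83 and 3.07%. When the rule was applied after thinning every barcode to 5000 UMIs, the share in Foxn1Lin female was 21.7%, with an interval of 17.7% to 26.1%. It was 9.95% (7.27% to 13.2%) in Foxn1Lin male and 13.5% (11.3% to 16.0%) in wild type mice. Thinning also removes UMIs of the genes that the rule excludes on, and 85 of 392 barcodes met the rule in Foxn1Lin female after it, against 74 of 608 before. These are single libraries, and no difference between them was tested. Barcodes that met every other limit but had over 1 UMI of Mki67 and Top2a, the cycling counterpart, numbered 28, 25 and 56.

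Levels were also followed over steps of the Aire count, with no test, since the steps use the same UMIs as the rule. The steps at 0 and 1 hold other epithelium, without limits on cycling or excluded genes, and those from 2 on hold members only. Other barcodes with 2 or more Aire UMIs are in no step. From 1 to 2 the class thus changes along with the Aire count for every gene. Barcodes just outside the limit, with 1 Aire UMI, numbered 48, 22 and 84, and those just inside, with 2, numbered 10, 10 and 21. Fezf2 was at 48.8, 27.7 and 27.8 CPM in barcodes without an Aire UMI, at 104, 229 and 124 at 1 UMI, at 199, 105 and 285 at 2 UMIs and at 459, 623 and 478 at 5 or more. H2-Aa, an MHC class II chain, was at 1639.7, 1909 and 1705 CPM without an Aire UMI, at 4396, 4525 and 4302 at 2 UMIs and at 4119.9, 5262 and 5398 at 5 or more. Both genes were higher at 2 UMIs than at 0 in every library. Csn2, the milk protein β-casein, was at 58.5, 84.3 and 75.2 CPM without an Aire UMI, at 861, 3656 and 809 at 2 UMIs and at 783, 1366 and 1308 at 5 or more. In both Foxn1Lin libraries the step at 2 UMIs, with 10 barcodes each, was above that at 5 or more. The cortical protease gene Prss16 was at 1246, 143 and 168 CPM at 1 Aire UMI and at 22.1, 10.5 and 10.9 at 2, a step at which the rule also starts to require 0 UMIs of Psmb11.

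**Figure D1:**
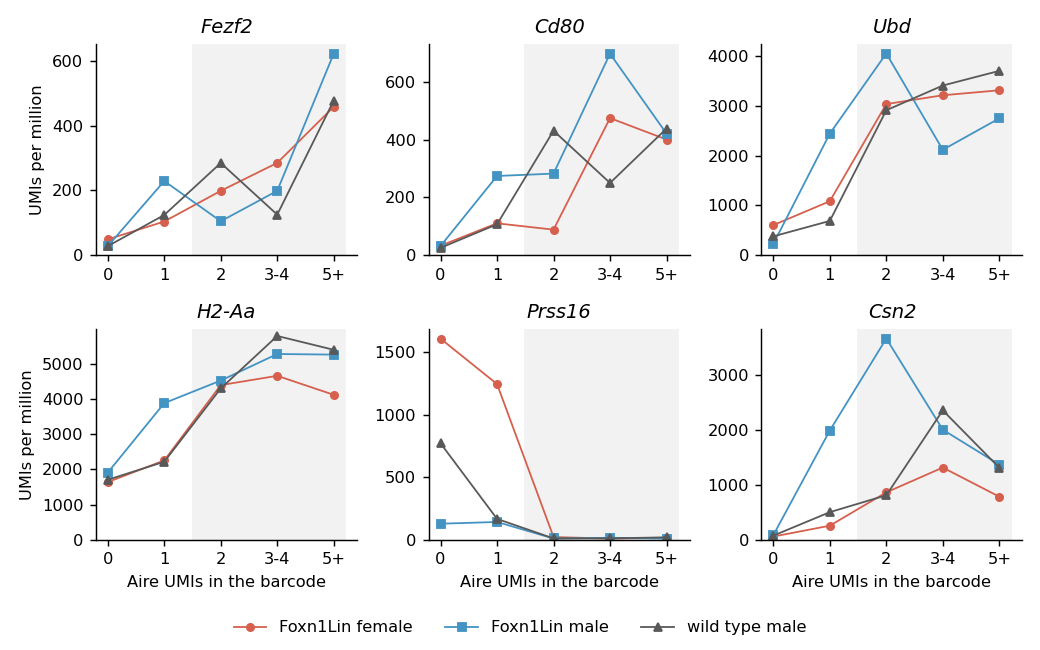
Summed level in CPM (y axis) of 6 genes in epithelial barcodes grouped by their number of Aire UMIs (x axis), with 1 line per library. The steps from 2 UMIs on are shaded and hold members only. The unshaded steps hold other epithelium, without limits on cycling or excluded genes. Ubd lay at 603, 226 and 378 without an Aire UMI and at 3037, 4054 and 2913 at 2, and Prss16 was at 22.1, 10.5 and 10.9 CPM there.

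Barcodes that met every other limit but held a Pecam1 UMI numbered 44, 13 and 42, and they lay just outside the rule. Of these, 75, 61.5 and 50% held a single Pecam1 UMI. Their Aire level was 687, 403 and 416 CPM, and their Fezf2 level 373, 491 and 325 CPM. The 8 other endothelial genes of the marker list summed to 512, 435 and 410.1 CPM in them, to 114, 48.0 and 89.6 CPM in members and to 6534, 6155 and 6154 CPM in barcodes with 0 Epcam and at least 2 Pecam1 UMIs. The part of free RNA or doublets in these barcodes was not tested.

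The tdTomato reporter, which marks past or present Foxn1 expression, was read as UMIs of any of the 8 transgene features. After each barcode was thinned to 2000 UMIs, 48.6% (36 of 74, 95% interval 36.9% to 60.6%) of members of Foxn1Lin female and 63.8% (37 of 58, 95% interval 50.1% to 76.0%) of those of Foxn1Lin male held a reporter UMI. In other epithelium the shares were 62.9% (336 of 534, 95% interval 58.7% to 67.0%) and 78.0% (348 of 446, 95% interval 73.9% to 81.8%). Members were lower in both libraries, and the intervals overlapped in both. With at least 2 reporter UMIs required, the shares were 13.5% (6.68% to 23.5%) and 27.6% (16.7% to 40.9%) of members against 38.4% (34.2% to 42.7%) and 56.3% (51.5% to 60.9%) of other epithelium, and the intervals did not overlap. Fibroblast barcodes, with 0 Epcam and at least 2 Pdgfra UMIs, gave a background of 4.25% and 3.61% at median depths of 7535.5 and 9579 UMIs before thinning. Without thinning, 85.1% and 91.4% of members and 90.6% and 94.2% of other epithelium were positive. At 5000 UMIs the shares were 69.6% and 90.0% against 82.8% and 92.2%. The intervals of the classes overlapped in both libraries at both settings. In the wild type, which carries no reporter, the count was 0 of 149 members, which allows a share of up to 2.01% by the limit of 3 counts and 2.45% by the exact interval. At full depth the fibroblast background was 15.5% and 14%.

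The amount of reporter RNA differed more than the share of positive barcodes. Members held 305 (95% interval 272 to 340.1) reporter CPM in Foxn1Lin female and 563 (95% interval 522 to 607) in Foxn1Lin male. Other epithelium held 880.0 (95% interval 861 to 899.7) and 1349 (95% interval 1324 to 1374) CPM. The exact Poisson intervals did not overlap in either library, but they cover counting error only and not the spread between barcodes. Cycling Aire-expressing barcodes, at 311 (95% interval 262 to 368) and 561 (95% interval 512 to 613) CPM, had intervals that overlapped those of the members, and fibroblast barcodes were at 27 (95% interval 24.5 to 29.7) and 49.5 (95% interval 45 to 54.4) CPM. UMIs outside called barcodes held 236 (95% interval 229 to 243) and 524 (95% interval 504 to 544) CPM, and their part in the members' level was not tested.

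To find which genes set the members apart, UMIs were summed per library and class and tested with edgeR's quasi-likelihood test, with the library as a block. Of 15760 genes tested, 2353 were higher and 2160 lower in members at a Benjamini-Hochberg adjusted P below 0.05, which is 14.9% and 13.7% of the genes, and the 7 genes of the rule were not counted. The direction was the same in all 3 libraries for 4504 of the 4513 genes. A log2 fold change above 2 was reached by 768 genes that rose and below −2 by 622 that fell. The median over all genes tested was −0.05. Without the wild type, 1139 genes rose and 1038 fell, and without Foxn1Lin male 1673 rose and 1276 fell. Other epithelium is a mixture of states, which includes Aire-expressing barcodes that were cycling or excluded, so each difference is from that mixture. The shares of 14.9% and 13.7% are those to set beside each list below. Against other epithelium with 0 Aire UMIs and under the exclusions, 19.1% of 13277 genes rose and 17.8% fell.

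Receptors and transducers of the RANK, CD40 and lymphotoxin pathways were mostly higher in members. Of the 20 genes of this list, 14 rose, 3 fell and 3 did not pass, and the median log2 fold change was 1.06. Tnfrsf11a, which encodes RANK, was at 382, 364 and 479 CPM in members and 121, 137 and 164 CPM in other epithelium (log2 fold change 1.61 ± 0.11 SE, edgeR adjusted P = 0.00138). Cd40 was at 205, 187 and 239.6 against 66.1, 43.7 and 54.7 CPM (2.03 ± 0.14, edgeR adjusted P = 0.00138). Against other epithelium with 0 Aire UMIs and under the exclusions, its log2 fold change was 4.24 and that of Tnfrsf11a 2.56. The groups of libraries did not overlap for either gene. Tnfrsf11b, whose product osteoprotegerin is a decoy that binds the RANK ligand, rose as well, by 1.71 on the log2 scale. Among the adaptors downstream of these receptors, Traf1 rose by 2.19, Traf3 by 1.30 and Traf6 by 1.16. The subunits of the alternative NF-κB pathway Nfkb2 and Relb rose by 1.24 and 1.27, and Rel by 1.12. Nfkb1 and Map3k14, which encodes the kinase NIK, did not pass (−0.14 and 0.03).

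Members of the same pathway that fell were Ltbr, Rela and Traf5. The lymphotoxin receptor gene Ltbr was at 9.58, 9.10 and 11.7 CPM in members and at 39.8, 32.1 and 32.0 CPM in other epithelium (−1.65 ± 0.22, edgeR adjusted P = 0.00534), with every member value below every comparison value. Rela, the classical NF-κB subunit, had a log2 fold change of −0.84, and Traf5 one of −0.77. Neither Rela nor Traf5 passed when the wild type or Foxn1Lin male was left out, and Traf5 did not pass without Foxn1Lin female either. The inhibitors of NF-κB encoded by Nfkbia and Nfkbie rose by 0.87 and 1.0, and the ubiquitin ligase genes Birc2 and Birc3 by 1.21 and 0.88, while Tnfaip3, which encodes A20, did not pass (−0.57).

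**Figure D2:**
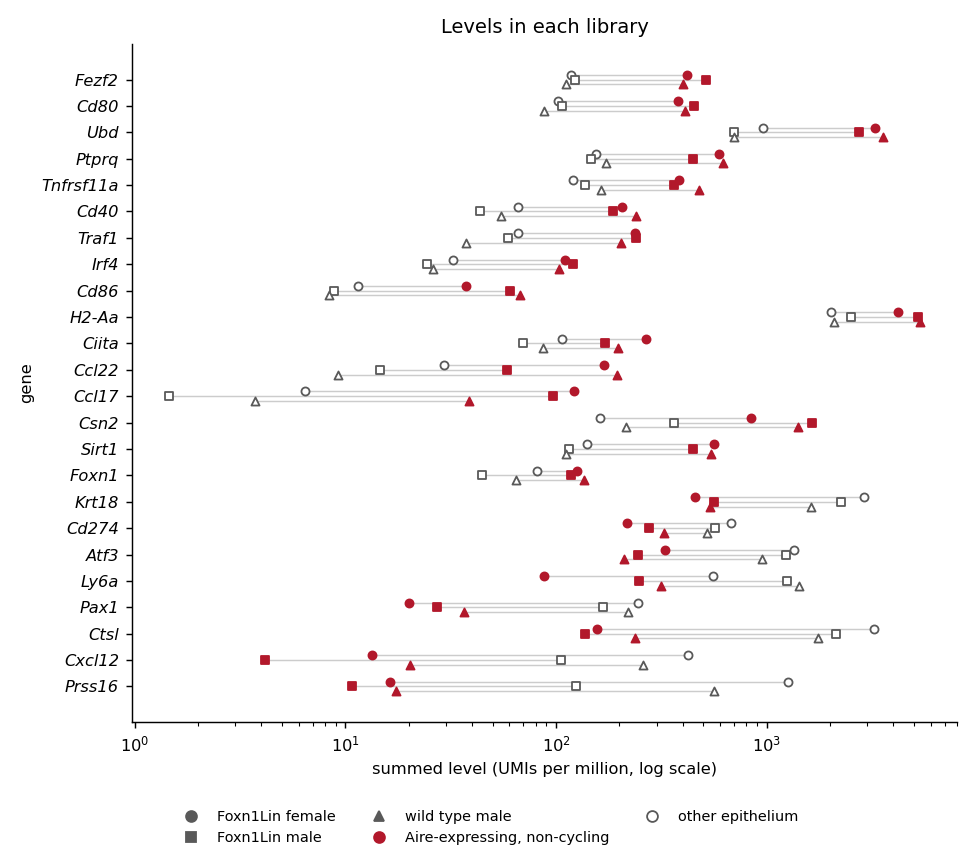
Summed level in CPM (x axis, log scale) of 24 genes (y axis) in members (filled) and other epithelium (open), with 1 symbol per library and a line joining the classes of a library. For RANK (Tnfrsf11a) members lay at 382, 364 and 479 and for Prss16 at 16.3, 10.8 and 17.3.

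Several transcription factors known from lymphoid and dendritic cells were among the genes that rose. Irf4 was at 110.2, 120.0 and 104 CPM in members and 32.4, 24.3 and 26.2 CPM in other epithelium (2.09 ± 0.15, edgeR adjusted P = 0.00138). Spib, an Ets-family factor, was at 125, 128 and 144 against 41.9, 54.8 and 60.2 CPM (1.42 ± 0.14, edgeR adjusted P = 0.00222). Both were higher in members of every library. Irf8 rose by 0.91. In all, 4 of 10 such factors rose, 4 fell and 2 did not pass, with a median of 0.01. Of all genes tested, 14.9% rose and 13.7% fell. The fourth that rose was Ikzf1 (1.36), which did not pass without the wild type. Ets1 and Id2 fell, with log2 fold changes of −2.09 and −1.54. Ikzf3 and Bach2 fell as well (−2.85 and −0.56), but neither passed without the wild type, and Bach2 did not pass without either of the other libraries. Against other epithelium with 0 Aire UMIs and under the exclusions of the rule, Ikzf3 did not pass (−1.74, edgeR adjusted P = 0.165).

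Genes of antigen presentation by MHC class II were mostly higher in members. Of 15 genes, 12 rose, 1 fell and 2 did not pass, with a median of 1.25. H2-Aa was at 4198, 5207 and 5339 CPM in members and 2011, 2524 and 2091 CPM in other epithelium (1.23 ± 0.11, edgeR adjusted P = 0.00180). Cd74, the invariant chain, was at 10150, 16986.5 and 11957 against 4572, 8012 and 5284 CPM (1.21 ± 0.09, edgeR adjusted P = 0.00138). All member values exceeded all comparison values for both. Ciita, the transactivator of the class II genes, rose by 1.34, and H2-Oa and H2-DMb2, which tune peptide loading, by 1.78 and 1.48. Ctss, encoding cathepsin S, was at 169.6, 169.6 and 168 against 59.2, 54.0 and 50.8 CPM (1.71 ± 0.12, edgeR adjusted P = 0.00138). Ctsl, encoding cathepsin L, which serves this step in cortical epithelium, was at 156, 137 and 237 against 3225, 2134 and 1761 CPM (−3.65 ± 0.31, edgeR adjusted P = 0.00172). Where other epithelium was held to 0 Aire UMIs and the exclusions of the rule, Ctsl had a log2 fold change of −2.68 (edgeR adjusted P = 0.0117). H2-DMb1 rose by 0.71 but missed the threshold without the wild type. Ctsl thus took the opposite direction in every library.

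Class I presentation had fewer genes that rose. Of 12 genes, 6 rose, 0 fell and 6 did not pass, with a median of 0.44, and 2 of those that rose, H2-K1 and H2-D1 (0.40 and 0.48), missed the threshold when the wild type or Foxn1Lin male was left out, and their values overlapped between classes. Psmb8, an immunoproteasome subunit, rose by 0.79 but missed the threshold without the wild type. Against other epithelium with 0 Aire UMIs and under the exclusions, 8 of 12 rose and 0 fell, where 19.1% and 17.8% of genes did. Psmb10 and Tapbp rose there (2.09 and 0.42) and did not pass against all other epithelium (0.73 and 0.37). B2m, the light chain, was at 3092, 4358 and 5407 against 1733, 2516 and 2855 CPM (0.92 ± 0.09, edgeR adjusted P = 0.00232). Psme1 and Psme2, which encode the proteasome activator PA28, rose by 1.18 and 1.28, while the transporter genes Tap1 and Tap2 did not pass (−0.08 and −0.15).

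Among costimulatory and coinhibitory ligands, 6 of 11 rose, 3 fell and 2 did not pass, with a median of 1.57. Cd86 was at 37.4, 60.4 and 67.2 CPM in members and 11.5, 8.88 and 8.39 CPM in other epithelium (2.61 ± 0.29, edgeR adjusted P = 0.00319), and a UMI was seen in 26.2% of members. Icosl rose by 2.07, Cd70 by 1.85 and Tnfsf9 by 2.28, all ligands of receptors on T cells. Il15, a cytokine for natural killer and memory T cells, rose by 1.57. Cd274, encoding the inhibitory ligand PD-L1, was instead at 217, 275 and 327 against 679, 570.1 and 521 CPM (−1.04 ± 0.20, edgeR adjusted P = 0.0146; adjusted P = 0.0532 without Foxn1Lin male). Its partner Pdcd1lg2, encoding PD-L2, rose by 1.48 (adjusted P = 0.0646 in edgeR without the wild type). Il7, a survival factor for thymocytes, and Vtcn1, an inhibitory ligand, fell, with log2 fold changes of −0.98 and −3.02, and Vtcn1 missed the threshold when Foxn1Lin male was left out.

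Among chemokine genes, both ligands of CCR4 rose and Cxcl12 fell. Of 16 genes tested, 7 rose, 1 fell and 8 did not pass, with a median of 1.44. Against other epithelium with 0 Aire UMIs and under the exclusions, 9 of 15 rose and 2 fell (median 1.82), where 19.1% and 17.8% of genes did. Ccl1 rose there (6.19) and did not pass against all other epithelium (2.66). Ccl17, a ligand of CCR4, was at 122, 96.8 and 38.5 CPM in members and 6.43, 1.46 and 3.72 CPM in other epithelium (4.43 ± 0.48, edgeR adjusted P = 0.00288). Ccl22, the other CCR4 ligand, was at 169.6, 58.7 and 195 against 29.6, 14.6 and 9.25 CPM (3.10 ± 0.50, edgeR adjusted P = 0.00938), and it did not pass with high doublet scores removed (2.71, edgeR adjusted P = 0.123). A UMI was seen in 16.0% of members for Ccl17 and in 16.7% for Ccl22. Ccl19, a ligand of CCR7, was seen in 91.1% of members and rose by 1.93. Ccl5 rose by 1.89 and Cxcl9 by 2.26. Cxcl12, which the cortex supplies, fell, from 423, 106 and 258 CPM in other epithelium to 13.4, 4.14 and 20.3 CPM in members (−4.16 ± 0.28, edgeR adjusted P = 0.00138). With the comparison set held to 0 Aire UMIs and the exclusions its log2 fold change was −3.18. Ccl21a, the chemokine of the immature mTEC1 state, did not pass (−2.60 ± 0.85, edgeR adjusted P = 0.0703). Its member values of 55.6, 123 and 528 CPM spread widely over the libraries, against 1009, 1547 and 631 CPM. Against other epithelium with 0 Aire UMIs and under the exclusions of the rule, Ccl21a fell (−3.39, edgeR adjusted P = 0.0317).

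**Figure D3:**
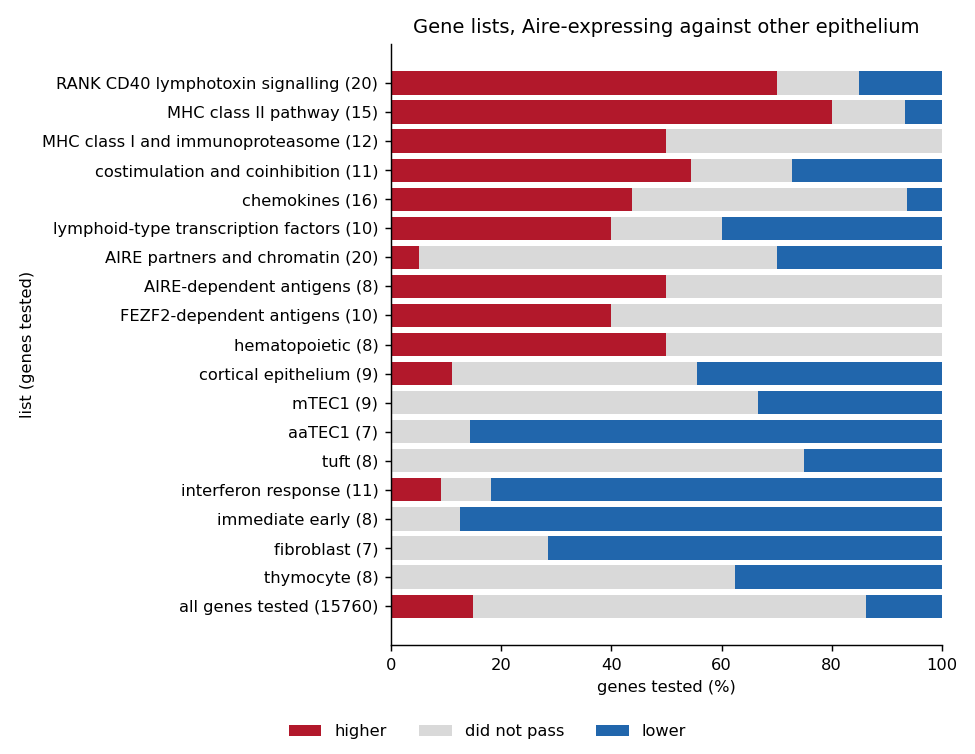
Share of the genes tested in each list (x axis, percent) that were higher, lower or did not pass in members against other epithelium (edgeR adjusted P below 0.05), with the number tested after each name (y axis). The MHC class II list had 12 of 15 genes higher, the immediate early list 7 of 8 lower, and all genes tested 14.9% higher and 13.7% lower.

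Known partners of the AIRE protein were not raised as a group. Of 20 genes tested, 1 rose, 6 fell and 13 did not pass, with a median of −0.29, where 14.9% of all genes tested rose and 13.7% fell. The gene that rose was Sirt1, encoding a deacetylase that acts on AIRE, at 563, 448 and 547 CPM in members and 139.7, 115 and 112 CPM in other epithelium (2.16 ± 0.12, edgeR adjusted P = 0.00134). All member values lay above all comparison values. Cdk9 and Ccnt1, which release paused RNA polymerase, did not pass (−0.10 and −0.05), and neither did Hipk2 (−0.03). Top1 and Xrcc5, which act on DNA breaks and supercoils, were lower, with log2 fold changes of −0.89 and −1.91.

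Among antigen genes that earlier work placed under AIRE, those that passed were higher in members. Of 8 tested, 4 rose, 0 fell and 4 did not pass, with a median of 2.44, where 14.9% of all genes tested rose and 13.7% fell. Other epithelium includes barcodes with Aire UMIs, and against that with 0 Aire UMIs and under the exclusions 5 of 6 rose, with a median of 4.76. Of all 13277 genes tested there, 19.1% rose and 17.8% fell. Csn2 had a log2 fold change of 3.89 in that comparison. Csn2 was at 843, 1645 and 1415 CPM in members and 162, 365 and 215 CPM in other epithelium (2.50 ± 0.15, edgeR adjusted P = 0.00134), and 88.3% of members held a UMI. Gal, the neuropeptide galanin, was at 359, 209 and 45.4 against 12.3, 21.6 and 9.49 CPM (3.52 ± 0.51, edgeR adjusted P = 0.00658), but only 8.51% of members held a UMI. Every library was higher in members for both. Crabp1, a retinoic acid binding protein, and Prm1, a sperm protamine, rose by 2.80 and 3.78. Ins2, the insulin gene, did not pass (−0.15) at 3.83, 0 and 10.5 CPM. The other 4 genes of the list were not tested, and of these Mup4, a urinary protein of the liver, had 85 UMIs in 9 members. Among 10 antigen genes placed under FEZF2, 4 rose, 0 fell and 6 did not pass, with a median of 1.15. Coch, the inner-ear protein cochlin, was at 56.5, 69.5 and 76.5 against 3.16, 18.7 and 12.0 CPM (2.87 ± 0.43, edgeR adjusted P = 0.00727). The others that rose, Apoc3, Maoa and Resp18 (1.92, 0.91 and 1.61), missed the threshold without the wild type, as did Apoc3 and Maoa without Foxn1Lin male or Resp18 without Foxn1Lin female. With the comparison set held to 0 Aire UMIs and the exclusions, 4 of 9 rose and 1 fell (median 1.54), beside 19.1% and 17.8% of all genes. The gene that fell was Krt10, a keratin of differentiating epidermis (−1.38, edgeR adjusted P = 0.00645), and Apoc3 did not pass there (2.13, edgeR adjusted P = 0.108).

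Genes with the highest fold changes were each seen in a minority of members. The 12 highest, among genes with at least 20 UMIs over both classes in each library, were Gzmb, Il1rapl2, Mgl2, Gm15581, BC048679, Ccl17, Calb2, 1700123O12Rik, Rims1, Ccl8, Crybb2 and Gkn1. Gzmb, the protease granzyme B of cytotoxic lymphocytes, was at 28.7, 28.1 and 13.7 CPM against 2.03, 0.243 and 0.157 CPM (5.44 ± 0.70, edgeR adjusted P = 0.00457), and the 110 UMIs of members lay in 7 barcodes against 24 UMIs in other epithelium. Il1rapl2, a brain receptor of the interleukin-1 family, was at 264, 69.5 and 55.9 against 5.19, 0.730 and 3.57 CPM (5.20 ± 0.47, edgeR adjusted P = 0.00185), with UMIs in 19 members and 25.6% of them in 1. Crybb2, a crystallin of the eye lens, was at 16.3, 22.3 and 13.7 against 1.69, 0.365 and 1.22 CPM, with UMIs in 20 members. Ccl8, a chemokine of macrophages, had UMIs in 29 members. The 12 ranged from 2.48% to 16.0% of members, so that 1 summed level stood for few cells. Without Foxn1Lin female, Mgl2, Rims1 and Gkn1 did not pass, without Foxn1Lin male Calb2 did not, and without the wild type neither Calb2 nor Gkn1 did.

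Among the genes that rose with a log2 fold change above 3, the 8 seen in the largest shares of members were Serpina12 (38.7% of members), Rarres1 (27.3%), 2610528A11Rik (24.5%), Tafa4 (24.5%), S100a9 (22.3%), Gm43251 (21.3%), Atp2b2 (19.9%) and Asic3 (19.9%). Serpina12, which encodes the adipose serpin vaspin, was at 62.3, 53.8 and 76.5 CPM in members and 7.45, 6.44 and 5.53 CPM in other epithelium (3.41 ± 0.23, edgeR adjusted P = 0.00138). S100a9, a calgranulin of neutrophils, was at 369, 207 and 254 against 35.9, 26.9 and 36.9 CPM (3.10 ± 0.16, edgeR adjusted P = 0.00134). For both, every library's members lay above every comparison value. Atp2b2, a calcium pump of hair cells and neurons, rose by 3.87, and Asic3, an acid-sensing channel of sensory neurons, by 3.11.

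Detection was uneven among members for rare genes. Among the genes that rose, 886 of 2353 (37.7%) had a UMI in at least 50% of members, and 173 (7.35%) in 1% to 5%, against 20.3% and 17.2% of all genes tested. The threshold of the test makes very rare genes hard to call, so these shares describe the genes called and not all genes expressed. Each member held between 0 and 28 of the 173 rare genes, with medians of 4, 5 and 5 in the libraries. Where a rare gene was seen, it could be abundant. Oxt, the hormone oxytocin, had 436 UMIs in 8 members, and 1 member held 287 of them. Other epithelium held 420 Oxt UMIs, and against that with 0 Aire UMIs and under the exclusions Oxt did not pass (2.38, edgeR adjusted P = 0.130). Pgc, a gastric pepsinogen, had 437 UMIs in 14 members, and Hpx, the liver protein hemopexin, 235 in 6. Il24, a cytokine, had 142 UMIs in 5 members and Gm14851 had 111 in 4. The highest single member thus held 39.4% to 73.6% of the UMIs of these 5 genes. Calb2, also chosen as a rare gene with many UMIs, had 240 UMIs in 10 members, and 1 member held 24.6% of them. Il24 and Pgc passed in every alternative. The values of Hpx overlapped between classes, and it missed the threshold when Foxn1Lin male or the wild type was left out, as did Gm14851 without Foxn1Lin female.

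**Figure D4:**
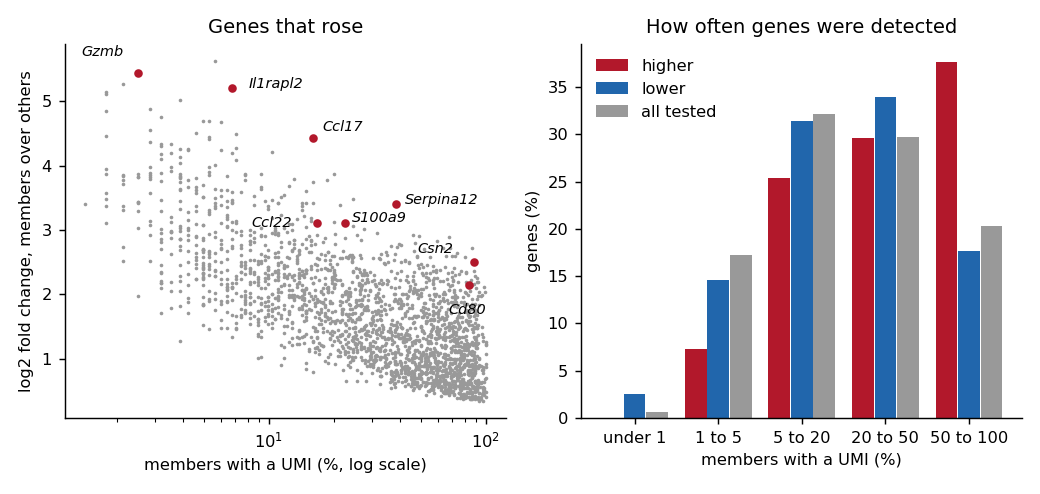
Left, log2 fold change (y axis) of the 2353 genes that rose against the percent of the 282 members with a UMI (x axis, log scale), with 8 genes named. Right, percent of genes (y axis) in each range of detection (x axis) for genes higher, lower and all tested; 37.7% of the genes that rose were seen in at least 50% of members.

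Sequence around the start sites was compared next, as many tissue-restricted genes lack the CG-rich promoters of broadly used genes. RefSeq windows on GRCm38.p6, from 250 bases before to 50 after the start, matched 12036 of the 15760 genes tested. The motif letters CG, which read the same on both strands, occurred a median of 14 times in genes that rose (1741 matched), 21 times in genes that fell (1665) and 19 times in all genes tested. Genes that rose with a log2 fold change above 2 had a median of 5, and 45.1% of them held under 5, against 12.8% of all genes tested. The median over all 27025 windows in the table, tested or not, was 7. Genes that rose less had a median of 18, and genes that rose and were seen in at least 50% of members one of 20. The letters TATAAA, on either strand, were in 16.8% of the windows of genes that rose above a log2 fold change of 2, 8.40% of all tested and 14.2% of all windows in the table. Rare detection on its own also went with fewer CG. Among all genes tested with a UMI in under 5% of members, 27.9% held under 5 CG, and among those that rose 46.3% did.

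The 4 promoters printed here cover the 250 bases before the start, with each CG in capitals and the rest in lower case, 5′ to 3′ on the strand of the gene (RefSeq, GRCm38.p6). Gzmb (chr14:56262335-56262584, minus strand, 1 CG) and Ccl17 (chr8:94810203-94810452, plus strand, 3 CG) were among the highest fold changes, Krt18 (chr15:102027966-102028215, plus strand, 12 CG) fell, and Aire itself (chr10:78043611-78043860, minus strand, 11 CG) is the gene of the rule, whose window also holds TATAAA. The highest fold changes were not all poor in CG, as Il1rapl2 held 14 and Rims1 19 over the same length.
Gzmb: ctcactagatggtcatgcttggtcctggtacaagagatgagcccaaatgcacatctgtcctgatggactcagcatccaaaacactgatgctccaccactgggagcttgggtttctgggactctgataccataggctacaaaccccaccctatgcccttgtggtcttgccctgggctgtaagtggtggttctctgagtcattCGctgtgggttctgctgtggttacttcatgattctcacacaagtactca
Ccl17: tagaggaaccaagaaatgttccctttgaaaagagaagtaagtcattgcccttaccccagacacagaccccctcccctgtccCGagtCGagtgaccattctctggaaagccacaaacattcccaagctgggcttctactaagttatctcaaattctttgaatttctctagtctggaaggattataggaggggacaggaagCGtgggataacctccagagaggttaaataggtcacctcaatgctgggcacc
Krt18: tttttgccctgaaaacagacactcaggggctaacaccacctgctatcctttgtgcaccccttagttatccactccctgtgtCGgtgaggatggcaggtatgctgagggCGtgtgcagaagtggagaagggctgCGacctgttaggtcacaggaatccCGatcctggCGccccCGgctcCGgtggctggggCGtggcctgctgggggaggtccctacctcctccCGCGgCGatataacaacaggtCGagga
Aire: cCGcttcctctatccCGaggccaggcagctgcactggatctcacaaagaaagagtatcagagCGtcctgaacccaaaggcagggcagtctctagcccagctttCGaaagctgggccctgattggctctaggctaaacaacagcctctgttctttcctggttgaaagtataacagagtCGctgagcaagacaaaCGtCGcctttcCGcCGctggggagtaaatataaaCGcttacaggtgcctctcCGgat

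Genes that rose were often neighbours on the chromosome. With the tested genes in the order of GENCODE vM21, 45.5% of the genes that rose had a tested neighbour on at least 1 side that also rose, against 26.8% of all genes tested, and 35.9% of genes that fell had a neighbour that fell, against 24.8%. Neighbouring copies of a gene can share reads, and overlapping genes can too, so part of these runs is uncertain. The longest run, of 9 genes on chromosome 9 (88688602 to 89377713), held Bcl2a1a, Bcl2a1b and Bcl2a1d, near-identical copies of a survival gene. The next, of 8 genes on chromosome 17 (34211312 to 34369495), held H2-Ob, H2-Ab1, H2-Aa, H2-Eb1 and H2-Eb2 of the MHC class II region. Another, of 7 genes on chromosome 3 (90514435 to 90611780), held S100a2, S100a3, S100a4, S100a5, S100a13, S100a14 and S100a16, which encode calcium-binding proteins.

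Genes of other epithelial states were mostly lower or did not pass. Among cortical genes, 4 of 9 fell, 1 rose and 4 did not pass, with a median of −0.88. Prss16 was at 16.3, 10.8 and 17.3 CPM in members and 1269, 124 and 561 CPM in other epithelium (−5.04 ± 0.44, edgeR adjusted P = 0.00175), and Pax1, a factor of the pharyngeal pouch, at 20.1, 27.3 and 36.4 against 246, 167 and 219 CPM (−2.80 ± 0.22, edgeR adjusted P = 0.00157). The cortical list is tied to the rule, which leaves out barcodes with Psmb11. The gene that rose was Foxn1, the master factor of thymic epithelium, at 126, 117 and 135 against 81.0, 44.7 and 64.4 CPM (1.11 ± 0.16, edgeR adjusted P = 0.00715). All member values exceeded all comparison values. Against other epithelium with 0 Aire UMIs and under the same exclusions, 4 cortical genes rose and 3 fell, where 19.1% and 17.8% of the 13277 genes tested did, and Foxn1 rose by 2.28. The fall of Prss16 was smaller against that set, which held 41.2, 46.9 and 27.1 CPM of it (−1.26, edgeR adjusted P = 0.0315).

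Of 9 genes of the mTEC1 state, 3 fell and 6 did not pass (median −0.57), and with the comparison set held to 0 Aire UMIs and the exclusions 6 fell and 0 rose (median −0.84). Ly6a was at 88.2, 247 and 315 against 557, 1255 and 1423 CPM and Pdpn at 8.62, 23.2 and 12.2 against 117, 215 and 226 CPM (−3.68 ± 0.22, edgeR adjusted P = 0.00137), with no overlap. Of 7 genes listed for the age-associated state aaTEC1, a state that the study describes in aged thymus, 6 fell and 1 did not pass (median −1.52). Krt18, a simple-epithelium keratin, was at 459, 565 and 537 against 2895, 2243 and 1632 CPM (−2.0 ± 0.21, edgeR adjusted P = 0.00273), and Cdh1 at 239.6, 318 and 354 against 466, 702 and 743 CPM. Cldn3 was the one that did not pass (−0.37). Among mimetic lists, 2 of 8 tuft genes, 2 of 8 basal keratinocyte genes and 2 of 5 neuroendocrine genes fell, where 13.7% of all genes tested did. In the neuroendocrine list Chga, a granin, was at 37.4, 24.0 and 53.5 against 581, 797 and 304 CPM (−3.62 ± 0.49, edgeR adjusted P = 0.00537), whereas Insm1, a transcription factor, was at 90.1, 201 and 179 against 24.9, 74.8 and 68.7 CPM (1.61 ± 0.15, edgeR adjusted P = 0.00190). Rises in the other mimetic lists were seen for 3 of 5 enterohepatic, 2 of 6 microfold, 1 of 6 goblet, 2 of 3 muscle and 1 of 3 ciliated genes, 0 of which fell, where 14.9% of all genes tested rose. Fcgbp, a mucus protein, was the goblet gene, seen in 95.4% of members and higher by 1.49.

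Stress-induced and interferon genes were lower in members. Of 8 immediate early genes, 7 fell and 1 did not pass, with a median of −1.62. Fos was at 439.8, 406 and 391 CPM in members and 1491, 2414 and 1716 CPM in other epithelium (−2.08 ± 0.18, edgeR adjusted P = 0.00177), and Atf3 at 329.6, 244 and 211 against 1349, 1234 and 949 CPM (−2.11 ± 0.12, edgeR adjusted P = 0.00134). No values overlapped. These genes also respond to tissue digestion, and their summed level was 10048 to 12173 CPM in barcodes without Epcam, against 2981 to 3124 in members and 8586 to 10738 in other epithelium. The part of digestion in this difference was not tested. Of 11 genes of the interferon response, 9 fell, 1 rose and 1 did not pass, with a median of −0.86. Isg15 was at 132, 201 and 129 against 253, 390.1 and 357 CPM (−1.06 ± 0.14, edgeR adjusted P = 0.00519). The medians of mitochondrial UMIs were 2.10, 3.37 and 3.74% in members and 2.31, 3.57 and 3.92% in other epithelium.

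The lowest genes in members held few or no UMIs there. The 8 named by fold change were Lgr5, Cys1, Sgo1, Zc3hav1l, Iglc2, Ttll7, Gm21859 and Iglv1. Lgr5, a receptor of epithelial stem cells, had 0 UMIs in the 282 members, where the level of other epithelium in each library (3.05, 16.4 and 10.0 CPM) would give 56.6 UMIs. With the floor of 3 counts taken over all members, its level was at least 18.9-fold lower if each UMI is counted as independent. In other epithelium, however, at most 4.91% of barcodes of any library held an Lgr5 UMI. At such a rate few members would hold one, so the true bound for Lgr5 can be much lower. Counted in the same way, Cys1, a ciliary protein, was at least 14.1-fold lower, Zc3hav1l at least 8.67-fold, Ttll7 at least 6.13-fold and Gm21859 at least 5.61-fold. With the comparison set held to 0 Aire UMIs and the exclusions, the bound for Lgr5 was 12.1-fold and that for Cys1 7.35-fold. All these bounds cover the counting error of UMIs only and not the spread between barcodes. Barcodes without Epcam held 24.3, 25.9 and 26.1 CPM of Cys1, 30.1, 43.2 and 20.3 of Ttll7 and 17.9, 12.6 and 8.78 of Gm21859. Their part in the comparison levels of these genes was not tested. Sgo1 protects chromosome cohesion in mitosis and is tied to the rule on cycling genes. Iglc2 and Iglv1 are immunoglobulin light chain genes, whose near-identical copies can share reads. RNA of Igkc, an immunoglobulin gene, and Pth, the parathyroid hormone, sat in few comparison barcodes, as 10 barcodes per library held 88.5% to 99.6% of the Igkc UMIs and 95.7% to 99.8% of the Pth UMIs of other epithelium.

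Markers of other cell types were checked for the members, beside 14.9% of all genes tested that rose and 13.7% that fell. Of 8 hematopoietic genes, 4 rose, 0 fell and 4 did not pass (median 1.28), and the list summed to 1337 to 1687 CPM in members, 402 to 641 in other epithelium, 44.9 to 97.7 in barcodes without Epcam and 323 to 669 outside called barcodes. The part of free RNA in the members' level was not tested. The 4 were Cd52 (86.2% of members, 1.80), Laptm5 (80.9%, 1.76), Rac2 (60.3%, 1.58) and Fcer1g (35.1%, 2.61). Ptprc, which encodes the sorted-out CD45, did not pass (−0.45), at 22.0, 7.45 and 10.5 CPM in members and 42.1, 7.05 and 15.3 CPM in other epithelium, with a UMI in 5.32% of members. Cd79a and Tyrobp were at most 5.79 CPM in members of any library. Thymocyte genes fell for 3 of 8 and rose for 0 (median −1.60), whereas against other epithelium with 0 Aire UMIs and under the exclusions 0 of 5 fell or rose (median 1.23). Fibroblast genes fell for 5 of 7 and endothelial genes for 3 of 8, 0 rose in either list (medians −1.95 and −1.82), and both lists are tied to the rule. Against the set held to the exclusions, 2 of 7 fibroblast genes fell and 1 rose (median −0.35), and of the 2 endothelial genes tested there 1 rose and 0 fell (median 0.85). Of 5 erythroid genes, 2 rose and 0 fell, with a sum of 29.8 to 344 CPM in members and 56.3 to 3666 CPM outside called barcodes. Of 7 mural genes, 2 rose and 3 fell.

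The cycling counterpart shared part of this profile. In its 109 barcodes, Fezf2 was at 447, 389 and 412 CPM, Cd40 at 160.2, 169.6 and 170.3 and H2-Aa at 2006, 3786 and 2819.5. The non-cycling members had higher H2-Aa in every library. Csn2 was at 185, 759 and 408 CPM in cycling barcodes, below the members of each library. Ccl22 was at 4.51, 54.2 and 5.83 CPM and Cd86 at 13.5, 31.8 and 6.36, again below the members of the same library. Gzmb was at 0, 0 and 1.06 CPM, but its member UMIs lay in 1, 3 and 3 barcodes, too few to show a difference. It was also chosen for its rise over other epithelium, which includes cycling barcodes. Pgc, another rare gene, was at 0, 107 and 3.18 CPM in cycling barcodes against 31.6, 70.3 and 95.3 in members. Ccnd2, encoding cyclin D2, was high in both, at 697, 479 and 690.1 CPM in members and 801, 575 and 1123 CPM in cycling barcodes, and was the 1 gene of 13 on the cell cycle list that rose against other epithelium (1.06 ± 0.09, edgeR adjusted P = 0.00178), while 7 fell (median −1.55), a direction tied to the rule. With the comparison set held to the same exclusions and to 0 Aire UMIs, 3 of 7 cell cycle genes rose and 0 fell (median 1.23). No test was run between the cycling and non-cycling sets.

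Lastly, the number of genes per barcode was compared at equal depth. After thinning to 5000 UMIs, members had a median of 2177, 2195.5 and 2243 genes and other epithelium 2285, 2242 and 2376.5. The difference, members minus others, was −108, −46.5 and −133.5 genes, so members were lower in 3 of 3 libraries. An exact two-sided sign-flip test over 3 libraries cannot go below a P of 0.25. The interquartile range of members spanned 2051 to 2271, 2029.5 to 2326 and 2098 to 2379 genes, which overlapped that of other epithelium. Shallower barcodes, 5, 8 and 5 members and 63, 51 and 51 others, were left out. Against other epithelium with 0 Aire UMIs under the same exclusions, the difference was −35, −20.5 and −103. Cycling Aire-expressing barcodes had medians of 2291, 2318.5 and 2338 genes and barcodes without Epcam 2229, 2177 and 2266.

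**Figure D5:**
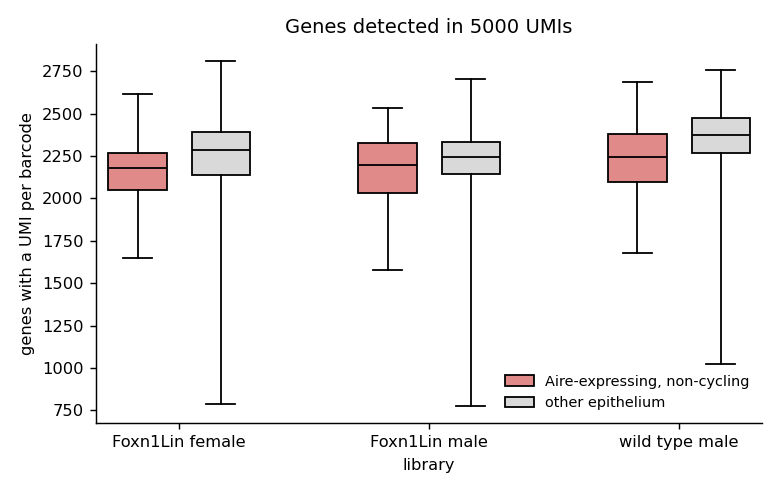
Genes with a UMI per barcode after thinning to 5000 UMIs (y axis) in members and other epithelium of each library (x axis). Boxes span the interquartile range with the median as a line, and whiskers reach the lowest and highest barcode; the members' medians, 2177, 2195.5 and 2243, lay below those of other epithelium.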

How the data were processed

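The deposited matrices give UMI counts, all whole numbers, for each gene in each barcode, which the authors made with Cell Ranger 7.0.1 on GRCm38 with transgene sequences added. The version in the labels reads 7.01, and the headers of the matrices of all barcodes, used only for values outside called barcodes, name another version. They were used as deposited, and counts of features sharing a symbol were summed. Barcodes with 1000 genes or fewer, or with at least 20% mitochondrial UMIs, were removed. Members and gene lists were chosen with earlier results of these data known. UMIs were summed per library and class, filtered with filterByExpr, scaled by TMM and tested with edgeR 4.0.16 (quasi-likelihood, library as block, Benjamini-Hochberg adjusted P below 0.05). The SE beside a log2 fold change is its absolute value over the square root of the F statistic, not an error that edgeR reports. On simulated data 100% of genes changed 4-fold upwards and 24% of those changed 2-fold upwards were recovered, as were 88% and 29.2% of those changed as much downwards, and 6 of 15502 unchanged genes were called. Named genes were list genes, the 12 highest and 8 lowest fold changes (same sign in each library, at least 20 UMIs per library, rule genes, transgenes, Xist and the Y-linked Ddx3y, Eif2s3y, Kdm5d and Uty left out), the 6 with most UMIs per positive member among those in under 5% of members, and the 8 most often detected above a log2 fold change of 3. Doublets were scored with Scrublet in scanpy 1.11.5. Class totals ranged from 1043544 to 3347572 UMIs in members. Both classes came from the same library, so the library number pairs them.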

Additional observations from a re-analysis of the deposited data

Results flagged for a closer look

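For 2 named genes that passed, the sign of the difference was not the same in every library. The difference was not tested, and in the library that departs the counts are too low to show a direction. Hpx, the liver protein hemopexin, differed by −1.30 CPM between members and other epithelium in Foxn1Lin female, where members held 1 UMI and other epithelium 20, and by 22.3 CPM in Foxn1Lin male and 59.7 CPM in the wild type. Hba-a2, an alpha globin gene with near-identical copies, differed by −0.122 CPM in Foxn1Lin male, where members held 0 UMIs and other epithelium 1, and by 53.4 CPM in Foxn1Lin female and 23.0 CPM in the wild type. Outside called barcodes Hba-a2 was at 844 CPM in the female library, 8.30 CPM in Foxn1Lin male and 16.1 CPM in the wild type, and the part of free RNA in its values was not tested.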

How the results depend on the processing

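Under the alternatives 1139 to 3062 genes were higher and 1038 to 2923 lower, against 2353 and 2160. Leaving out a library gave 1139 to 1876 genes higher and 1038 to 1452 lower, and the lowest values came without the wild type, the library with most members. Without the replicate block, 2052 genes were higher and 1650 lower. Without a filter on low counts, 2261 were higher and 2923 lower, so that 43.6% of calls were higher in place of 52.1%. Of 181 named genes that passed, 112 passed in the same direction in all 13 alternatives and 123 in all but the 3 that leave out a library. Against other epithelium with 0 Aire UMIs, Cdk1 turned to 1.41, and under the exclusions as well Cdk1 turned to 4.79 and Plvap to 0.61, and the cause was not tested. With 1 Aire UMI allowed, the share of members was 16.9% in Foxn1Lin female and 16.5% in the wild type, and with the rule applied after thinning it was 21.7% in Foxn1Lin female. The reporter-positive share was 85.1% and 91.4% in Foxn1Lin female and male without thinning (90.6% and 94.2% of other epithelium). At 5000 UMIs it was 69.6% and 90% (82.8% and 92.2% of other epithelium). With at least 2 transgene UMIs it was 13.5% and 27.6% (38.4% and 56.3% of other epithelium). The difference in genes per barcode was −35 in Foxn1Lin female against the comparison under the exclusions and −156 at 8000 UMIs, and −106 in Foxn1Lin male with high doublet scores removed and −95 at 3000 UMIs. It was below 0 in each library under each alternative, and the cause of these shifts was not tested.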
